A study of Mus musculus with 10 samples.

Results

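Endothelial identity genes are described here in the mouse heart after pressure overload. The 36 genes, among the 20692 in the count table, were taken by symbol from a list of genes that mark the cells lining blood vessels, and each of the 36 symbols had a row. Polyadenylated RNA of the ventricular apex (the protocol's tissue; the label says whole heart) was sequenced from 10 FVB/NJ mice, an inbred strain, labelled female and 9 weeks old in both groups. In 5 mice the transverse aorta had been narrowed 1 week before (TAC, an operation that raises the pressure the left ventricle pumps against), and 5 were sham-operated, as the series' design text states for libraries whose own titles name no operation. The mice are labelled wild type, so no allele or drug separates the groups, and the tissue is a mixture of cell types of 1 strain at 1 time.

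The endothelium is a single layer of cells held together by the adhesion molecules VE-cadherin and PECAM1 and sealed by claudin-5 where the barrier is tight. Its gene programme is kept by transcription factors of the ETS family (ERG, FLI1, ETS1), the SOXF family (SOX7, SOX17, SOX18) and the basic helix-loop-helix factors TAL1 and LYL1. In the heart, where capillaries run beside nearly every muscle cell, the endothelium also moves fatty acids from blood to muscle and, when activated, displays selectins, ICAM1 and VCAM1, to which white blood cells bind.

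Each library held 7410967 to 10126574 counts. Values per library are CPM, counts scaled to a common total after TMM normalization, and are given for replicates 1 to 5 in that order. Changes are log2 fold changes (log2FC) of TAC over sham ± standard error (SE). They come from the quasi-likelihood test of edgeR, and p-values were adjusted by the Benjamini-Hochberg method over the 12001 genes with enough counts to be tested. A gene is said to rise or fall where its adjusted p was under 0.05. The library labelled TAC replicate 1 did not match its female label: it had 14 counts of Xist, the RNA of the inactive X chromosome, where the other libraries had at least 1042, and 155 counts of the Y-linked gene Ddx3y. Where a call changes without it, or a called value moves by over 1.5 times, both values are given. The design text counts each library as a separate mouse but names no operation day or cage. The p-values set the difference between the groups against the spread of libraries within them, which may be partly technical. The stated read alignment also differed between the groups (TopHat 1.3.0 for TAC, TopHat2 2.0.10 for sham), and its part cannot be told apart from that of the operation.

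Most endothelial identity genes were higher in TAC than in sham hearts, by modest amounts. Of 36 members 35 were tested, and of these 22 rose, 1 fell (Prox1) and 12 missed the threshold. The median log2FC was 0.37. Among all tested genes 18.8% were called higher and 17% lower, with a median of 0.00, whereas 62.9% of the tested members were called higher. The list was chosen with earlier results of these data known, so this contrast describes the list and is not a test. The shares over all tested genes are the background for each count of a role or list below. Selp, the member not tested, had too few counts. In 10 members every TAC library lay above every sham library, 28.6% of those tested against 12.2% over all tested genes. In 1 member, Prox1, every TAC library lay below every sham library, where the share over all tested genes was 11.6%. Called in either direction were 23 members, beside 35.8% of all tested genes. Without the library labelled TAC replicate 1 the number of members that rose was again 22, of which 21 were shared. Of the 23 called members, 17 kept their call in each of the 18 alternative settings. In bulk tissue more cells of a type and more RNA per cell cannot be told apart, so each value is a share of the heart's polyadenylated RNA.

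**Figure D1:**
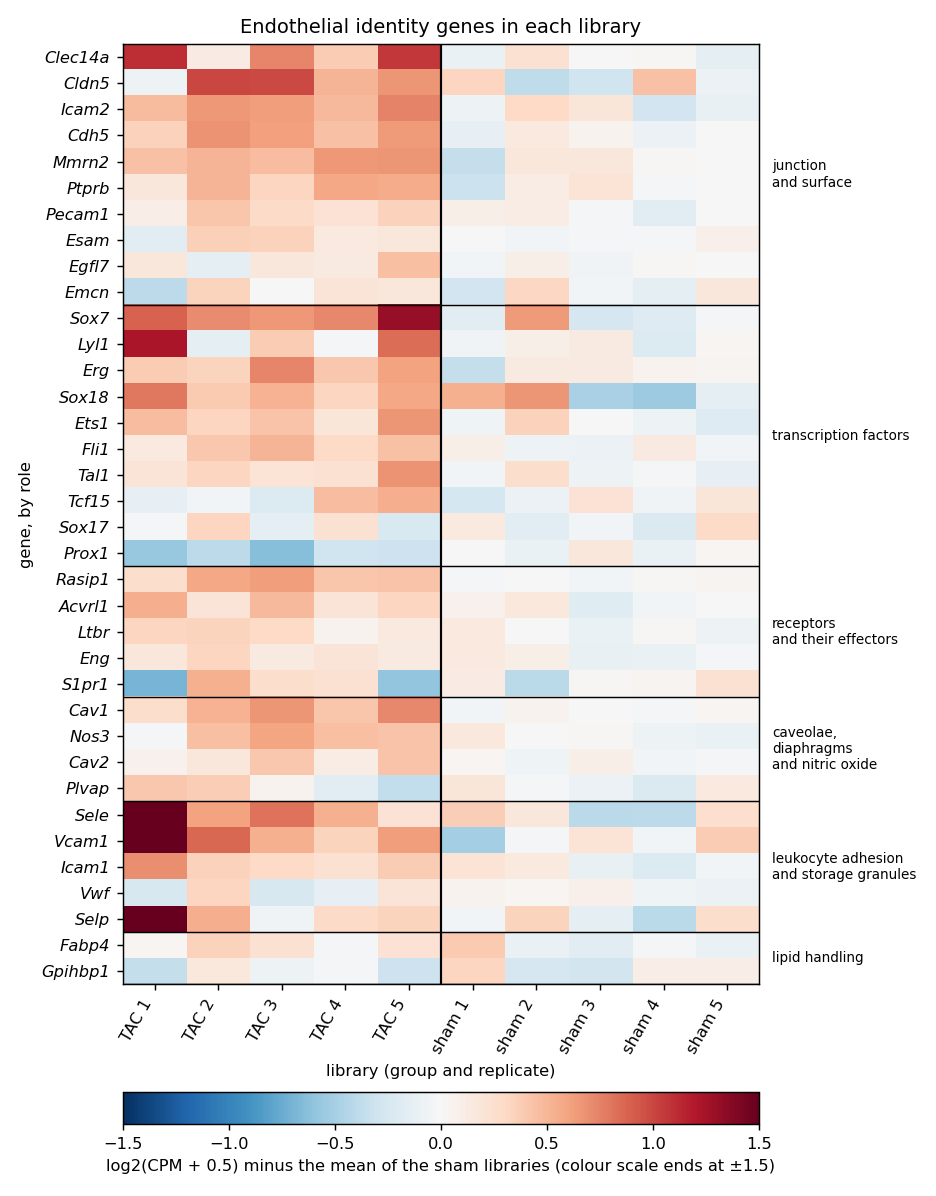
Each row is a gene, grouped by role, and each column a library, with TAC left of sham. The colour is log2(CPM + 0.5) minus the mean of the 5 sham libraries, with a colour scale that ends at 1.5 on either side. Most rows are redder across the TAC columns, Prox1 is bluer, and Sele, Vcam1, Selp and Lyl1 are darkest in TAC replicate 1, where Sele, Vcam1 and Selp pass the end of the scale.

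**Figure D2:**
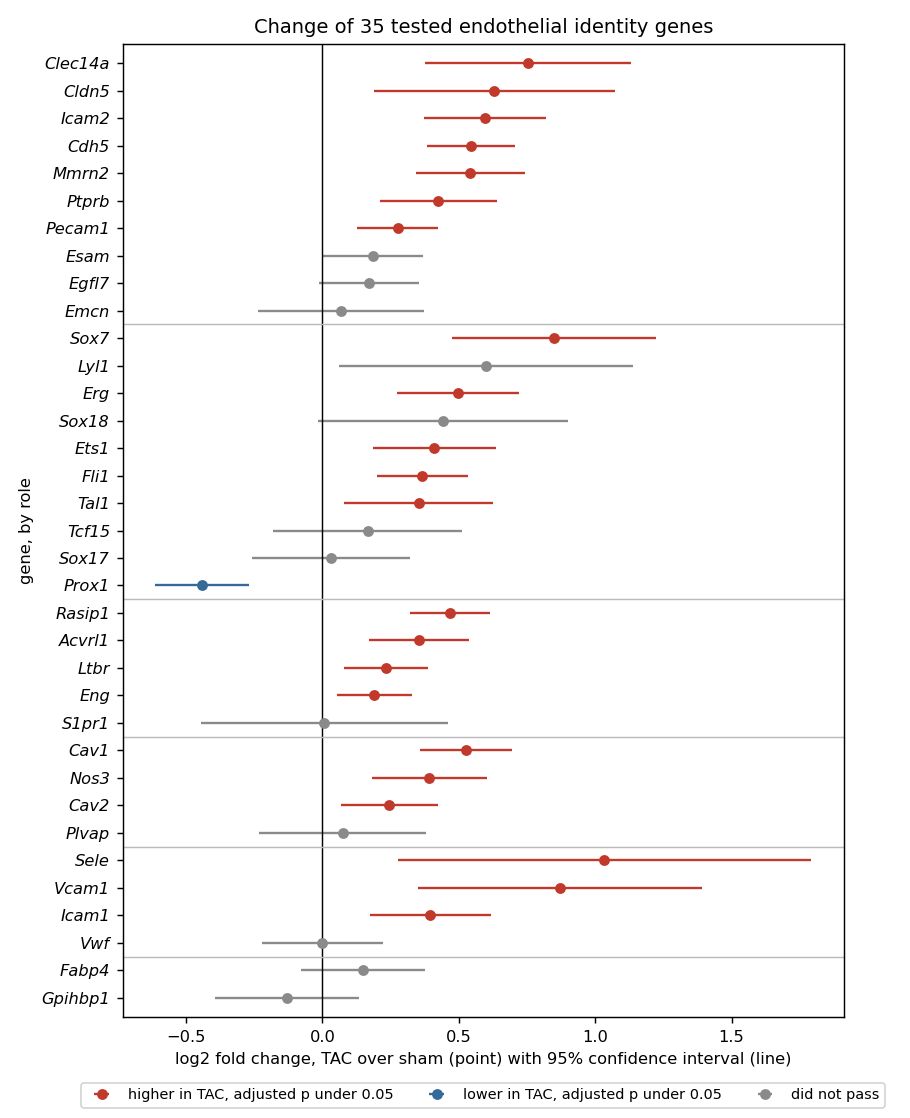
Points are log2FC values of TAC over sham for the 35 tested members, grouped by role, and lines are 95% confidence intervals. The 22 genes that rose lie between 0.19 (Eng) and 1.03 (Sele), and Prox1 lies at -0.44.

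Of 10 genes for junctions, cell surface and matrix contact, 7 rose and 3 did not pass. Cdh5 (ENSMUSG00000031871, chr8:104101625-104144511 in GRCm38) encodes VE-cadherin, the adhesion molecule of endothelial adherens junctions, and had the smallest adjusted p of the members. It stood at 357, 449, 429, 381 and 437 CPM in the TAC libraries, against 259, 310.0, 292, 264 and 283 CPM in the sham libraries. Every TAC heart lay above every sham heart, and the lowest of the TAC hearts was replicate 1. The level was 1.46 times that of sham (log2FC 0.54 ± 0.07, adjusted p = 0.000179 by edgeR). Mmrn2 encodes multimerin-2, an endothelial matrix glycoprotein that binds the C-type lectin encoded by Clec14a. Its values were 76.6, 80.5, 77.7, 88.5 and 89.6 CPM in the TAC libraries, against 43.8, 63.3, 63.4, 56.8 and 56.5 CPM in the sham libraries. The groups did not overlap, and sham replicate 1 was the lowest of the 10 libraries (log2FC 0.54 ± 0.09, adjusted p = 0.000741 by edgeR). Icam2, an adhesion molecule that resting endothelium carries at its junctions, gave 39.9, 45.3, 44.6, 40.4 and 48.5 CPM in the TAC libraries, against 27.1, 35.2, 32.5, 23.4 and 26.4 CPM in the sham libraries. The groups again did not overlap (log2FC 0.60 ± 0.10, adjusted p = 0.000785 by edgeR).

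Clec14a itself had the largest change of these 10 genes (log2FC 0.75 ± 0.17, adjusted p = 0.00501 by edgeR) but varied between TAC hearts. It was at 26.8, 13.3, 20.6, 15.97 and 26.01 CPM in the TAC libraries, against 11.3, 14.4, 12.1, 12.4 and 10.99 CPM in the sham libraries. TAC replicates 1, 3 and 5 were well above sham, TAC replicate 4 slightly above it, and TAC replicate 2 lay inside the sham range. Ptprb, a receptor tyrosine phosphatase that acts on VE-cadherin and on the TIE2 receptor, gave 144, 182, 159.7, 191 and 188 CPM in the TAC libraries, against 103, 139, 148, 127 and 129 CPM in the sham libraries. TAC replicate 1 fell within the sham range and the other TAC hearts lay above it (log2FC 0.43 ± 0.10, adjusted p = 0.00537 by edgeR). Pecam1, the platelet and endothelial adhesion molecule that is most often used to stain vessels, gave 230.5, 286, 262, 250.2 and 273 CPM in the TAC libraries, against 228, 231, 210.0, 192 and 213 CPM in the sham libraries. Its rise was among the smaller ones (log2FC 0.28 ± 0.07, adjusted p = 0.00745 by edgeR), and TAC replicate 1 lay level with the highest sham hearts. Cldn5, claudin-5 of tight junctions, gave 23.9, 50.96, 50.7, 36.1 and 40.3 CPM in the TAC libraries, against 31.8, 19.3, 20.4, 34.5 and 23.7 CPM in the sham libraries. The TAC hearts other than replicate 1 lay above the sham hearts, and in that replicate the gene was within the sham range (log2FC 0.63 ± 0.20, adjusted p = 0.0289 by edgeR). With 1 library left out, the Cldn5 call was lost in 5 of 10 fits (TAC replicate 2 or 3, sham replicate 2, 3 or 5), and the log2FC ran between 0.53 and 0.77 over the 10.

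Esam, Egfl7 and Emcn did not pass. Esam, an adhesion molecule of tight junctions, had 117 ± 16.6 CPM in TAC and 103 ± 3.13 CPM in sham hearts (SD, n = 5 each; adjusted p = 0.111 by edgeR). Its value was lower in TAC replicate 1, at 91.8 CPM, than in any sham heart, and without that library the log2FC was 0.26 and passed (adjusted p = 0.00501 by edgeR). Egfl7, a secreted protein of the vessel matrix, had a log2FC of 0.17 ± 0.08 (adjusted p = 0.136 by edgeR). Emcn, the sialomucin endomucin of veins and capillaries, had 0.07, with a 95% interval of -0.24 to 0.37.

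Among 10 transcription factors 5 rose (50%) and 1 fell (10%), against 18.8% and 17% of all tested genes. The other 4 did not pass, and the ETS factors rose together. Erg, which is largely restricted to endothelium among normal adult tissues, gave 46.6, 45.1, 59.7, 47.3 and 54.2 CPM in the TAC libraries, against 27.7, 39.1, 39.1, 36.9 and 36.6 CPM in the sham libraries. The groups did not overlap (log2FC 0.50 ± 0.10, adjusted p = 0.00259 by edgeR). Fli1, its close relative that blood cells also express, gave 33.9, 40.4, 43.5, 37.7 and 41.6 CPM in the TAC libraries, against 32.4, 28.8, 28.5, 33.4 and 29.5 CPM in the sham libraries. Its TAC libraries lay above its sham libraries, narrowly for TAC replicate 1 (log2FC 0.37 ± 0.08, adjusted p = 0.00282 by edgeR). Ets1, which lymphocytes and other cells express too, gave 155, 141, 151, 128 and 177 CPM in the TAC libraries, against 107, 143, 112, 106 and 97.8 CPM in the sham libraries. Here sham replicate 2 reached into the TAC range and the other sham hearts lay below it (log2FC 0.41 ± 0.10, adjusted p = 0.00842 by edgeR). The log2 ratio of Erg to Fli1 within a library differed between the groups by 0.13 (exact two-sided permutation test over 252 divisions of the libraries, p = 0.381, adjusted p = 0.508 over 8 pairs of related members). These pairs were chosen after their values were seen, so their p-values describe the ratios and are not independent tests of them.

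The SOXF genes gave unlike values. Sox7 (ENSMUSG00000063060, chr14:63943673-63950732 in GRCm38) was at 48.9, 43.2, 41.3, 43.3 and 65.4 CPM in the TAC libraries, against 23.4, 40.97, 21.8, 22.9 and 25.6 CPM in the sham libraries. Every TAC heart lay above every sham heart, narrowly where sham replicate 2 is concerned, with TAC replicate 5 and sham replicate 2 the highest of their groups. Sox7 was 1.802 times its sham level (log2FC 0.85 ± 0.17, adjusted p = 0.00227 by edgeR), the largest rise among the factors. Sox17, which marks arterial endothelium, gave 13.3, 17.1, 12.2, 15.97 and 11.5 CPM in the TAC libraries, against 14.99, 11.9, 13.2, 11.6 and 16.7 CPM in the sham libraries. The groups covered the same range (log2FC 0.03 ± 0.13, adjusted p = 0.884 by edgeR; 95% interval -0.26 to 0.32). Sox18 gave 109, 82.6, 90.5, 78.8 and 93.96 CPM in the TAC libraries, against 90.9, 99.7, 44.6, 42.8 and 56.6 CPM in the sham libraries. Its sham hearts fell into a high pair, replicates 1 and 2, and 3 low ones, while its TAC hearts all exceeded those 3, and the gene did not pass (log2FC 0.44 ± 0.21, adjusted p = 0.123 by edgeR). The log2 ratio of Sox7 to Sox17 was 1.77 ± 0.46 in TAC and 0.94 ± 0.48 in sham (SD, n = 5 each). That difference of 0.83 had p = 0.0317 and adjusted p = 0.127 over the 8 pairs (exact two-sided permutation test), which were chosen after their values were seen. Over 8 pairs this test cannot pass a pair that alone reaches its smallest possible p. The p of this pair lay above that smallest value (0.00794), and its ratios overlapped between TAC (1.32 to 2.48) and sham (0.61 to 1.76). A difference in response between the members of this family was neither shown nor excluded.

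Tal1 and Lyl1 encode related factors shared by endothelium and blood-forming cells. Tal1 gave 9.13, 10.1, 9.16, 9.395 and 12.95 CPM in the TAC libraries, against 7.65, 9.63, 7.49, 7.78 and 7.21 CPM in the sham libraries. Its rise was small beside its spread (log2FC 0.35 ± 0.13, adjusted p = 0.0453 by edgeR), TAC replicates 1, 3 and 4 lay below sham replicate 2 and above the other sham hearts, and with 1 library left out the call was lost in 6 of 10 fits (TAC replicate 2 or 5, sham replicate 1, 3, 4 or 5), with log2FC values between 0.25 and 0.43 over the 10. Lyl1 gave 11.6, 4.21, 6.27, 4.59 and 8.78 CPM in the TAC libraries, against 4.51, 4.9997, 5.17, 4.003 and 4.81 CPM in the sham libraries. TAC replicates 1 and 5 were far above sham and replicates 2 and 4 within its range, and the gene did not pass (log2FC 0.60 ± 0.25, adjusted p = 0.0773 by edgeR). Without TAC replicate 1 its log2FC was 0.36 (adjusted p = 0.209 by edgeR). Tcf15, a factor of capillary endothelium in the mouse heart and of early mesoderm, had 15.4 ± 3.93 CPM in TAC and 13.8 ± 1.98 CPM in sham hearts (SD, n = 5 each) and was not called (adjusted p = 0.454 by edgeR).

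Prox1 (ENSMUSG00000010175, chr1:190118035-190170714 in GRCm38) was the member that fell. It encodes the homeobox factor that sets lymphatic identity, and in the mouse heart it is also active in cardiac muscle cells. Its values were 53.7, 60.9, 50.98, 64.8 and 64.4 CPM in the TAC libraries, against 79.97, 74.5, 89.8, 74.3 and 81.7 CPM in the sham libraries. Every TAC heart was below every sham heart, and the level was 0.737 of sham (log2FC -0.44 ± 0.08, adjusted p = 0.00107 by edgeR). Of 6 other lymphatic genes tested, Nrp2 and Flt4 rose (33.3%, against 18.8% of all tested genes) and 4 did not pass. Their log2FC values were above 0 in 3 and below it in 3, and Ccl21a was near 0 counts. Nrp2, a co-receptor of lymphatic growth factors that other cells also carry, had 0.97 ± 0.09 (adjusted p = 2.71e-05 by edgeR), and Flt4, the receptor VEGFR3, had 0.28 ± 0.06 (adjusted p = 0.00403 by edgeR). Pdpn, podoplanin, did not pass (log2FC 0.50 ± 0.19, adjusted p = 0.0589 by edgeR), though it was called higher with scaling to library totals (0.60) and without TAC replicate 4 (0.60) or TAC replicate 5 (0.59). Reln and Mmrn1 had negative values that did not pass, at -0.31 ± 0.14 (adjusted p = 0.107 by edgeR) and -0.32 ± 0.24 (adjusted p = 0.33 by edgeR). Lyve1, the hyaluronan receptor of lymphatic vessels, had 24.2 CPM in TAC and 24.97 CPM in sham hearts (log2FC -0.05 ± 0.17, adjusted p = 0.86 by edgeR). Of 10 cardiomyocyte markers, 7 fell and 3 did not pass. Their median log2FC was -0.42, beside -0.44 for Prox1. Whether the fall of Prox1 belongs to muscle cells or to vessels was not tested.

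The 250 bases before the transcription start are shown for 4 members that rose and for Prox1, since the list holds ETS factors beside genes that could carry their sites. Where a gene has several starts, the one farthest upstream is shown. RefSeq promoters (build GRCm38.p6, from the C57BL/6J reference and not from FVB/NJ) were matched by symbol for 16 of the 36 members, with 23 start sites. Capitals mark the letters CCGGAA or AGGAAG on either strand, short forms of the sequence that ETS factors bind. No match overlapped another in these windows. Sequences run 5′ to 3′ in the direction of the gene.
Eng, chr2:32646345-32646594, plus strand: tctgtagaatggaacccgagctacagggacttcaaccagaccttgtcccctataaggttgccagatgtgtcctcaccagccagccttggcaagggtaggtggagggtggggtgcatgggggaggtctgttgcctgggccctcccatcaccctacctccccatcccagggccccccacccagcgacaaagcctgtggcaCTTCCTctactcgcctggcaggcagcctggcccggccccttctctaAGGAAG
Cav1, chr6:17306085-17306334, plus strand: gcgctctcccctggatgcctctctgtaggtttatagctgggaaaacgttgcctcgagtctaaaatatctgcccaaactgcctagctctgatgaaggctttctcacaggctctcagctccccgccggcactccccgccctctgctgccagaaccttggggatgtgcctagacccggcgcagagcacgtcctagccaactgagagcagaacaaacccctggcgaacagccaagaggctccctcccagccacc
Icam1, chr9:21015690-21015939, plus strand: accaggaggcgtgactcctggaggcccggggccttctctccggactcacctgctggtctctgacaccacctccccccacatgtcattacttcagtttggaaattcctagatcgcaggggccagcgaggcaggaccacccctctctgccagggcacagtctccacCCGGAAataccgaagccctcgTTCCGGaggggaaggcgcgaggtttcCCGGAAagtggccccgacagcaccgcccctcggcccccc
Erg, chr16:95586594-95586843, minus strand: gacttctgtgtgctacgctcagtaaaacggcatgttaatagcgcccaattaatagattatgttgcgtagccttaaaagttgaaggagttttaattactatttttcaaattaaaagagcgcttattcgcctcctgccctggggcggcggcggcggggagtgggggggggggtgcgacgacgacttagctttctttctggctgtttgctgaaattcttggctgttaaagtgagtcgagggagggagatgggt
Prox1, chr1:190170828-190171077, minus strand: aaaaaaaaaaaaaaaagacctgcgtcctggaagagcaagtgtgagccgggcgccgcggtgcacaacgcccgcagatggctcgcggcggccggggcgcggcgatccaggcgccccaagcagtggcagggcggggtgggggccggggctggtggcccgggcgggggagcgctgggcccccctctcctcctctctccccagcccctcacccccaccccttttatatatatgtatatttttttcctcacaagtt
The Icam1 window holds CCGGAA 3 times, counting both strands, and the Eng window holds AGGAAG 2 times. The windows of Cav1, Erg and Prox1 hold neither (a downstream start of Erg holds AGGAAG), which says nothing beyond these letters. Over the 23 member windows CCGGAA was present in 3 (13%), against 12% of 32851 RefSeq windows. AGGAAG was present in 8 (34.8%), against 29.5%, so neither share stood far from that of all promoters. The median G and C content was 59.6% in member windows and 52.4% in all windows. The letters ACAAT, bound by SOX factors, were in 4 (17.4%) against 27.7%, and AGATAA, bound by GATA factors, in 2 (8.7%) against 9.99%.

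Among 5 receptors and effectors 4 rose and 1 did not pass. Rasip1 (ENSMUSG00000044562, chr7:45627488-45639093 in GRCm38), a Ras-interacting protein that vessels need to form a lumen, had the second smallest adjusted p of the members. It was at 79.6, 99.2, 103, 88.9 and 89.6 CPM in the TAC libraries, against 65.3, 66.8, 64.7, 67.4 and 68.2 CPM in the sham libraries. The sham hearts lay within a few CPM of each other and every TAC heart lay above them (log2FC 0.47 ± 0.07, adjusted p = 0.000249 by edgeR). In the GENCODE annotation 20.4% of its exon bases are shared with Izumo1, so part of its reads could be ambiguous in counting. Acvrl1 encodes ALK1, the receptor through which BMP9 and BMP10 act on endothelium, and gave 78.8, 61.97, 76.05, 61.9 and 67.5 CPM in the TAC libraries, against 56.7, 60.4, 47.5, 52.5 and 53.8 CPM in the sham libraries. The groups did not overlap, and TAC replicates 1 and 3 were the highest (log2FC 0.35 ± 0.08, adjusted p = 0.00592 by edgeR). Eng, the endoglin co-receptor of ALK1, gave 422, 471, 414, 429.6 and 415 CPM in the TAC libraries, against 416, 401, 349, 351 and 368 CPM in the sham libraries. The rise was 1.14-fold, the smallest among the members that rose (log2FC 0.19 ± 0.06, adjusted p = 0.0336 by edgeR), and the lower TAC hearts lay level with the highest sham heart. With 1 library left out its call was lost in 5 of 10 fits (TAC replicate 2 or 4, sham replicate 3, 4 or 5), and the log2FC lay between 0.15 and 0.23.

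Of 13 other tested genes of the BMP9 and BMP10 pathway, 2 rose and 1 fell, and their median log2FC was 0.04. These shares, 15.4% and 7.69%, did not exceed the 18.8% and 17% over all tested genes. Smad1, a receptor-activated transducer, rose (log2FC 0.53 ± 0.08, adjusted p = 0.000432 by edgeR), as did its target Id3 (log2FC 0.34 ± 0.12, adjusted p = 0.0435 by edgeR). The Id3 call was lost without TAC replicate 1 (0.27, adjusted p = 0.101 by edgeR), and likewise without TAC replicate 3 or 5 or sham replicate 3, 4 or 5, with log2FC values of 0.27 to 0.33 in those 6 fits. Smad6, an inhibitory member, fell (log2FC -0.28 ± 0.08, adjusted p = 0.0148 by edgeR), but was not called with scaling to library totals (-0.17, adjusted p = 0.103 by edgeR). Id1, another target, had 47.8 CPM in TAC and 48.3 CPM in sham hearts (adjusted p = 0.912 by edgeR), and Bmpr2, the partner receptor, had 48.98 CPM in TAC and 44.5 CPM in sham hearts (adjusted p = 0.349 by edgeR). Without sham replicate 1 Bmpr2 was called higher (log2FC 0.24, adjusted p = 0.0451 by edgeR). The ligand genes Gdf2 and Bmp10 had too few counts to be tested.

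Ltbr, the lymphotoxin beta receptor, which many cell types besides endothelium express, gave 60.1, 60.2, 59.2, 49.5 and 53.2 CPM in the TAC libraries, against 53.03, 48.2, 44.7, 48.5 and 45.3 CPM in the sham libraries. TAC replicate 4 lay within the sham range and replicate 5 barely above it (log2FC 0.23 ± 0.07, adjusted p = 0.0222 by edgeR). With 1 library left out its call was lost in 4 of 10 fits (TAC replicate 2 or 3, sham replicate 3 or 5), and the log2FC lay between 0.21 and 0.28. S1pr1, the sphingosine 1-phosphate receptor that stabilises junctions, gave 63.7, 150.2, 124, 122 and 68.6 CPM in the TAC libraries, against 113, 78.4, 105, 107 and 122 CPM in the sham libraries. The TAC hearts split into low values in replicates 1 and 5 and higher ones in replicates 2 to 4, the sham hearts lay between them, and the means were alike (log2FC 0.01 ± 0.21, adjusted p = 0.984 by edgeR; 95% interval -0.44 to 0.46). Of 7 other tested genes of this lipid signal, 4 rose (Spns2, Sgpl1, S1pr2 and Sphk1), 1 fell and 2 did not pass. Those that rose made 57.1% and the one that fell 14.3%, against 18.8% and 17% of all tested genes. Spns2, the transporter that releases the lipid from endothelial cells, rose (log2FC 0.53 ± 0.09, adjusted p = 0.000809 by edgeR), as did Sgpl1, which encodes the lyase that breaks it down (log2FC 0.46 ± 0.09, adjusted p = 0.00171 by edgeR), while Ppap2b, a lipid phosphatase gene, fell (log2FC -0.28 ± 0.06, adjusted p = 0.00329 by edgeR).

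Of the 4 genes of caveolae, diaphragms and nitric oxide, 3 rose and 1 did not pass. Cav1 (ENSMUSG00000007655, chr6:17306335-17341452 in GRCm38) encodes caveolin-1, the coat protein of caveolae, the flask-shaped pits that crowd the endothelial membrane. It was at 202, 242, 268, 225 and 278 CPM in the TAC libraries, against 164, 176, 168, 165 and 172 CPM in the sham libraries. The sham hearts were close together, every TAC heart lay above them, and the level was 1.44 times that of sham (log2FC 0.53 ± 0.08, adjusted p = 0.000312 by edgeR). Cav2, its partner, gave 24.97, 26.9, 31.9, 25.8 and 32.3 CPM in the TAC libraries, against 24.4, 22.8, 25.4, 23.3 and 23.7 CPM in the sham libraries. TAC replicate 1 lay within the sham range and replicate 4 just above it (log2FC 0.25 ± 0.08, adjusted p = 0.0338 by edgeR), and with 1 library left out its call was lost in 5 of 10 fits (TAC replicate 3 or 5, sham replicate 2, 4 or 5), at 0.19 to 0.29 over the 10. The log2 ratio of Cav1 to Cav2 was 3.09 ± 0.06 in TAC and 2.81 ± 0.09 in sham (SD, n = 5 each), and the ranges did not overlap. The difference of 0.28 had p = 0.00794, the smallest that this exact permutation test can give. The adjusted p over the 8 pairs was 0.0635, which did not pass. Over 8 pairs, a pair that alone reaches this smallest p cannot pass the threshold, however far apart its groups lie. The adjusted p therefore cannot decide whether this ratio differed, and the pairs were chosen after their values were seen.

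Nos3, the endothelial nitric oxide synthase that caveolin-1 binds and restrains, gave 74.2, 104, 114, 104 and 102 CPM in the TAC libraries, against 84.5, 75.8, 76.6, 71.7 and 70.7 CPM in the sham libraries. TAC replicate 1 lay inside the sham range, and the other TAC hearts lay above it (log2FC 0.39 ± 0.10, adjusted p = 0.00745 by edgeR). Without TAC replicate 1 the log2FC was 0.48 (adjusted p = 0.000151 by edgeR). In the annotation some of its exon bases overlap Atg9b on the other strand, which libraries without strand cannot separate. Plvap, which forms the diaphragms of caveolae and fenestrae, had 23.7 ± 5.47 CPM in TAC and 22.3 ± 2.602 CPM in sham hearts (SD, n = 5 each) and was not called (log2FC 0.08 ± 0.14, adjusted p = 0.715 by edgeR). Of 12 other genes for caveolae and nitric oxide signalling, 6 rose, 3 fell and 3 did not pass. Rises made 50% and falls 25%, against 18.8% and 17% of all tested genes. Ehd2, an ATPase at the neck of caveolae, had a log2FC of 0.64 ± 0.06 (adjusted p = 2.86e-05 by edgeR), and Ptrf, which encodes the coat protein cavin-1, of 0.35 ± 0.05 (adjusted p = 0.00033 by edgeR). Ddah2, of a gene family named for clearing a natural inhibitor of nitric oxide synthases, had 0.52 ± 0.07 (adjusted p = 0.000223 by edgeR). The genes that fell were Pacsin2, Murc and Cav3, of which Murc and Cav3 are muscle forms of caveolar proteins. Gucy1a3, a subunit of the nitric oxide receptor, had 0.11 ± 0.12 (adjusted p = 0.492 by edgeR).

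**Figure D3:**
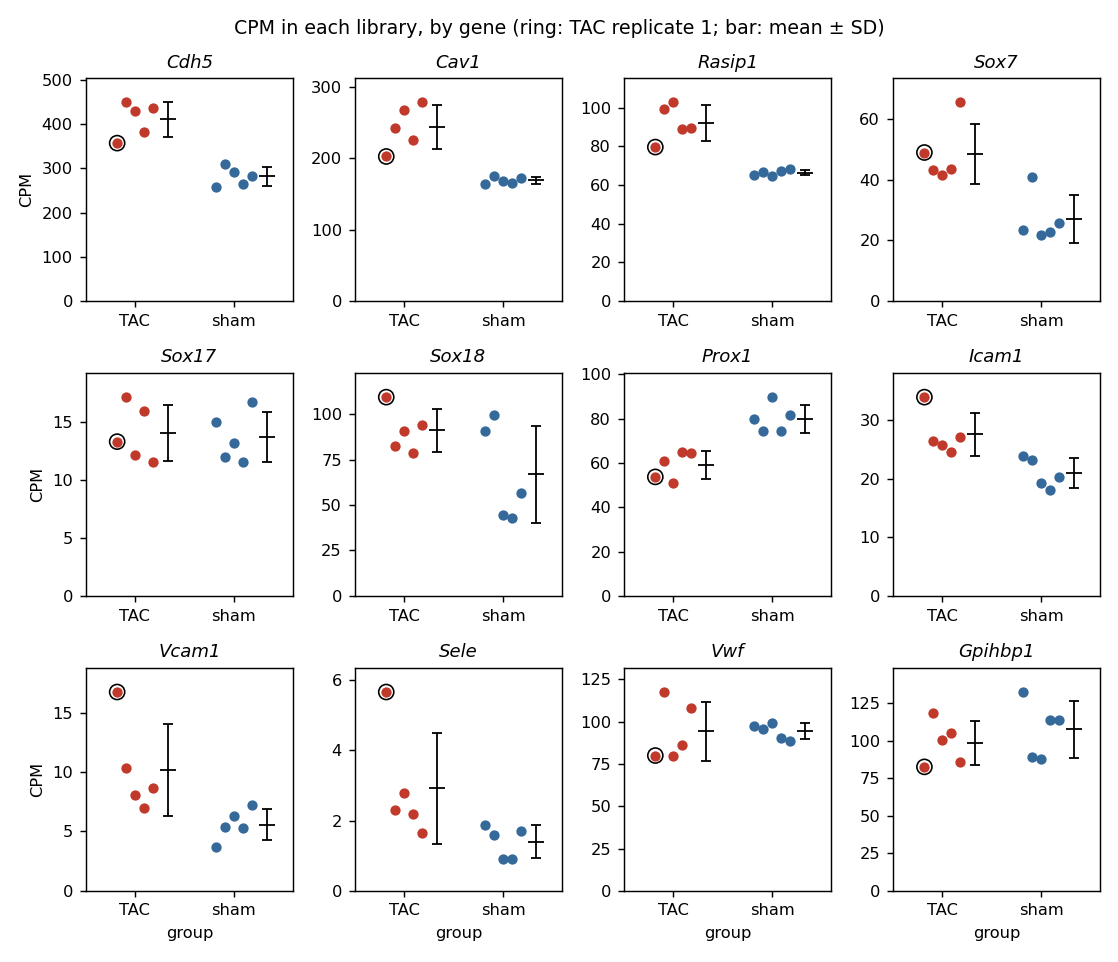
Each panel is a gene and each point a library, TAC left and sham right, on a linear CPM axis that starts at 0. Bars are mean ± SD over 5 libraries, and the ring marks TAC replicate 1. The groups are apart for Cdh5, Cav1, Rasip1, Sox7, Prox1 and Icam1 and overlap for Sox17, Sox18, Sele, Vwf and Gpihbp1, while in Vcam1 the lowest TAC heart (6.99 CPM) lies below the highest sham heart (7.21 CPM).

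Among 5 genes for leukocyte adhesion and storage granules, 3 rose, 1 did not pass and 1 was not tested. Apart from Vwf their levels were low, and in those 4 genes the highest value came from the same heart, TAC replicate 1. Icam1 (ENSMUSG00000037405, chr9:21015985-21028817 in GRCm38), a ligand of leukocyte integrins, gave 33.98, 26.5, 25.8, 24.5 and 27.2 CPM in the TAC libraries, against 24.002, 23.2, 19.2, 18.1 and 20.3 CPM in the sham libraries. Every TAC heart lay above every sham heart, narrowly for replicate 4 (log2FC 0.40 ± 0.10, adjusted p = 0.00943 by edgeR). Vcam1, a ligand of the integrin VLA-4, gave 16.8, 10.3, 8.07, 6.99 and 8.67 CPM in the TAC libraries, against 3.67, 5.37, 6.33, 5.26 and 7.21 CPM in the sham libraries. The value of TAC replicate 1 was well above the rest, and the groups met at their edges (log2FC 0.87 ± 0.24, adjusted p = 0.0132 by edgeR). Sele, E-selectin, which is switched on in activated endothelium, gave 5.66, 2.31, 2.77, 2.19 and 1.65 CPM in the TAC libraries, against 1.89, 1.59, 0.904, 0.915 and 1.72 CPM in the sham libraries. The libraries held 15 to 49 reads of it in TAC and 7 to 18 in sham, and TAC replicate 5 lay within the sham range (log2FC 1.03 ± 0.35, adjusted p = 0.0348 by edgeR).

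Without the library labelled TAC replicate 1 the log2FC values were 0.31 for Icam1 (adjusted p = 0.0174 by edgeR) and 0.61 for Vcam1 (adjusted p = 0.0201 by edgeR). Sele did not hold its call without it, at 0.64 (adjusted p = 0.0801 by edgeR), nor without TAC replicate 3 or sham replicate 2, 3 or 4. Selp, P-selectin, had 31, 10, 6, 10 and 10 reads in the TAC libraries, against 7, 9, 5, 4 and 9 reads in the sham libraries. TAC replicate 1 was far above the other libraries, the ranges of which overlapped, and no test was made. Vwf, von Willebrand factor, stored with P-selectin in Weibel-Palade bodies, gave 79.98, 118, 79.8, 86.4 and 108 CPM in the TAC libraries, against 97.7, 95.8, 99.2, 90.2 and 88.6 CPM in the sham libraries. The TAC hearts spread to both sides of the sham hearts, and the means were alike at 94.3 CPM in each group (adjusted p = 0.998 by edgeR; 95% interval -0.22 to 0.22).

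Of 13 tested genes of NF-kB and lymphotoxin signalling, which can induce these adhesion genes, 8 rose and 5 did not pass. Rising genes made 61.5% of this list, against 18.8% of all tested genes. Relb and Nfkb2, subunits of the form that the lymphotoxin receptor engages, came to a log2FC of 0.73 ± 0.09 (adjusted p = 8.42e-05 by edgeR) and 0.41 ± 0.07 (adjusted p = 0.00119 by edgeR). Nfkb1 had 0.21 ± 0.05 (adjusted p = 0.00477 by edgeR). Nfkbia, an inhibitor that the pathway itself induces, had 52.5 CPM in TAC and 62.6 CPM in sham hearts and missed the threshold (adjusted p = 0.347 by edgeR). The ligand genes Lta, Ltb and Tnfsf14 had too few counts to be tested.

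Neither lipid-handling member passed. Gpihbp1 encodes the protein that carries lipoprotein lipase to the capillary surface, and gave 82.5, 118, 100.3, 105 and 85.7 CPM in the TAC libraries, against 132, 89.3, 87.95, 114 and 114 CPM in the sham libraries. The ranges overlapped (log2FC -0.13 ± 0.12, adjusted p = 0.443 by edgeR; 95% interval -0.39 to 0.14). Fabp4, a fatty acid binding protein of heart capillaries and of fat cells, had 441 ± 47.8 CPM in TAC and 398 ± 66.8 CPM in sham hearts (SD, n = 5 each; log2FC 0.15 ± 0.11, adjusted p = 0.296 by edgeR). Sham replicate 1, at 515 CPM, was the highest of all 10 libraries. The fat cell genes Adipoq, Plin1, Lep and Retn had too few counts to be tested, and Cfd and Cidec did not pass. Of 6 other tested genes of lipid handling, 1 rose, 4 fell (Lpl, Fabp3, Cd36 and Lmf1) and 1 did not pass. Rises made 16.7% and falls 66.7%, against 18.8% and 17% of all tested genes. Not all of them are genes of capillaries, and the cells behind these changes were not tested. Lpl, the lipase that Gpihbp1 carries, fell to 2166 CPM in TAC hearts, against 3085 CPM in sham hearts (log2FC -0.51 ± 0.10, adjusted p = 0.00139 by edgeR). Fabp3, the muscle form of the binding protein, also fell (log2FC -0.43 ± 0.08, adjusted p = 0.00102 by edgeR), and Fabp5 rose (log2FC 0.76 ± 0.13, adjusted p = 0.000888 by edgeR).

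Levels differed by orders of magnitude between members when set per length of transcript. Fabp4 was highest, at 493 ± 53.4 CPM per kb in TAC and 444 ± 74.5 CPM per kb in sham hearts (SD, n = 5 each). Gpihbp1 followed at 119 ± 17.8 CPM per kb in TAC and 130.3 ± 22.8 CPM per kb in sham hearts. Eng stood at 126 ± 6.98 CPM per kb in TAC and 110.2 ± 8.78 CPM per kb in sham hearts, and the ranges of Gpihbp1 and Eng overlapped in each group. Egfl7, Cdh5, Cav1 and Pecam1 came next, between 79.3 and 103 CPM per kb in TAC and between 65.5 and 89.6 CPM per kb in sham hearts. The lowest were Sele, at 1.002 in TAC against 0.481 CPM per kb in sham hearts, and Selp, at 0.454 in TAC against 0.231 CPM per kb in sham hearts. The order was similar in TAC, where Sox7 stood at place 21 of 36 against place 29 in sham. Of the 35 neighbouring pairs in the sham order, 27 had overlapping ranges, while each of Fabp4, Eng, Egfl7, Pecam1, S1pr1, Sox7, Sox17 and Vcam1 stood apart from the gene next below it. Summed over the 36 members, CPM were 3297 to 3857 in TAC and 2829 to 3121 in sham libraries, with TAC replicate 1 the lowest of the TAC hearts.

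**Figure D4:**
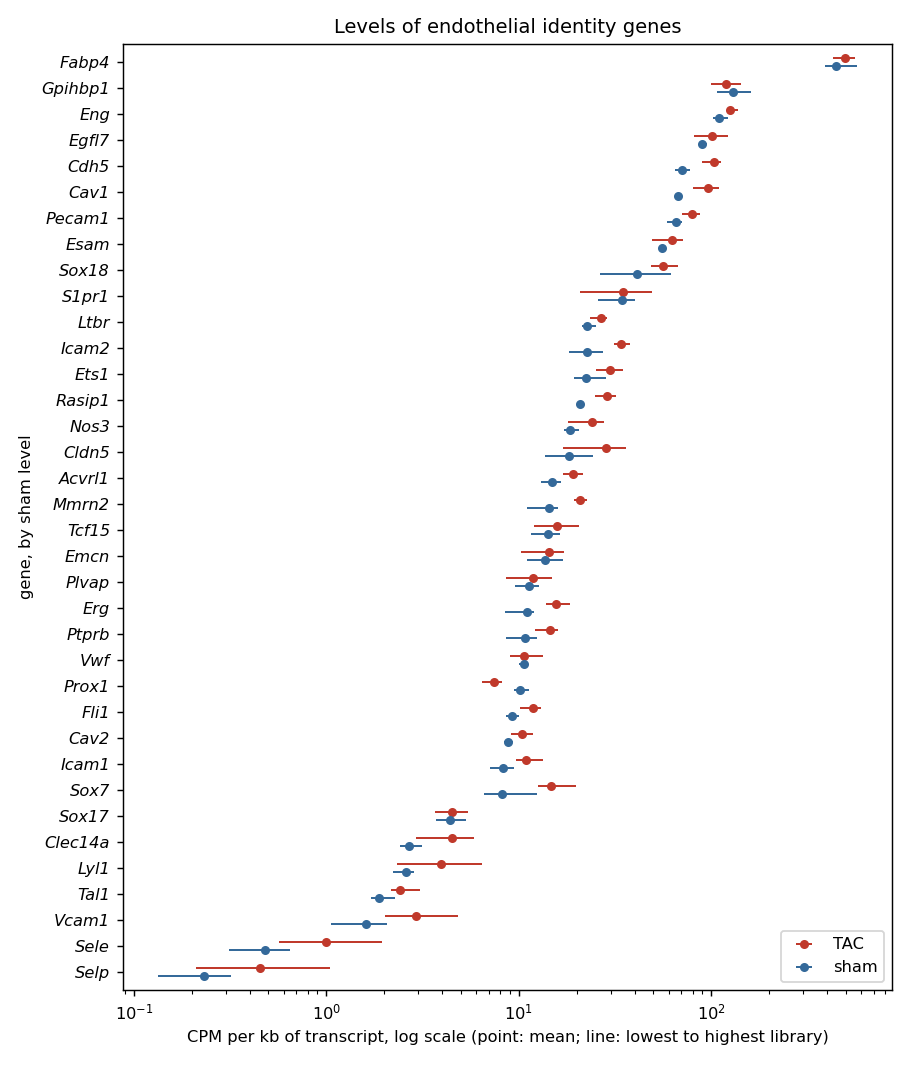
Points are mean CPM per kb of the principal transcript on a log axis, TAC above sham for each gene, and lines run from the lowest to the highest of 5 libraries. Genes are in the order of their sham level, from Fabp4 (444 CPM per kb) to Selp (0.231 CPM per kb).

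Of 33 other endothelial genes, 12 rose, 21 did not pass and none fell. Their median log2FC was 0.14, beside 0.37 for the members, a difference between lists that was not tested. The share that rose was 36.4%, against 18.8% over all tested genes, and this list too was chosen with earlier results of these data known. Cd93 and Cd34, both surface glycoproteins of endothelium, had log2FC values of 0.73 ± 0.09 (adjusted p = 0.000121 by edgeR) and 0.73 ± 0.09 (adjusted p = 0.000123 by edgeR). Meox2, a homeobox factor of heart capillaries, had 0.80 ± 0.11 (adjusted p = 0.000149 by edgeR). Kdr, Flt1, Tek and Tie1, 4 receptor genes of this list singled out after their values were seen, did not pass: Kdr had a log2FC of -0.18, Flt1 -0.12, Tek 0.11 and Tie1 0.19. Summed CPM of the 33 genes were 2748 to 3468 in TAC and 2792 to 3104 in sham libraries, and TAC replicate 1 was the lowest of the 10.

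Markers of other cells moved in the same hearts. Macrophage genes rose in 9 of 10 cases, with summed CPM of 354 to 578 in TAC and 217 to 253 in sham libraries, highest in TAC replicate 1. C1qa, Lyz2 and Mrc1 had log2FC values of 0.70 ± 0.11 (adjusted p = 0.000503 by edgeR), 0.86 ± 0.16 (adjusted p = 0.00108 by edgeR) and 0.77 ± 0.14 (adjusted p = 0.00124 by edgeR). Macrophages can also express Icam1, Fli1, Lyl1, Ltbr and Pecam1. Their part in the changes of members was not tested, nor was that of fibroblasts, pericytes or smooth muscle cells. Ptprc, the marker shared by leukocytes, rose (log2FC 0.80 ± 0.26, adjusted p = 0.0267 by edgeR), and the other 5 lymphocyte genes had too few counts to be tested. Ptprc stood at 0.47 without TAC replicate 1 (adjusted p = 0.0298 by edgeR), and lost its call without sham replicate 4 (0.73) or sham replicate 5 (0.77). Of 3 tested megakaryocyte and platelet genes, which bear on Selp, Vwf and Tal1, Pf4 rose (log2FC 0.53 ± 0.14, adjusted p = 0.0119 by edgeR), and Ppbp and Itga2b did not pass. None of 5 erythroid genes passed, with summed CPM of 1000.1 to 2137 in TAC and 276 to 1688 in sham libraries.

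Fibroblast genes rose in 6 of 10 cases and fell in 2 (Gsn and Dpep1), with summed CPM of 4374 to 9274 in TAC and 2534 to 3139 in sham libraries. Their highest sum was in TAC replicate 1, and Col3a1, Col1a2 and Col1a1 had log2FC values of 2.12, 2.09 and 2.14 (adjusted p of 0.000189, 0.000189 and 0.000409 by edgeR). In that library these collagen genes stood at 3054, 1847 and 2998 CPM and made up most of the sum. The other fibroblast genes that rose were Lum (0.96), Dcn (0.32) and Pdgfra (0.27), while Tcf21 (0.34) and Fbln1 (0.01) did not pass. Of 10 genes of pericytes and smooth muscle, 3 rose (30%, against 18.8% of all tested genes) and 7 did not pass. Those that rose were Cspg4 (0.63), Notch3 (0.33) and Pdgfrb (0.26), and the summed CPM of the 10 genes overlapped, at 1691 to 1924 in TAC and 1614 to 1988 in sham libraries. Among endocardial genes Cytl1 fell (log2FC -0.75 ± 0.18, adjusted p = 0.00616 by edgeR), Nfatc1 rose (log2FC 0.19 ± 0.07, adjusted p = 0.047 by edgeR) and Npr3 did not pass, and Hapln1 was at 0 counts in each library. The Nfatc1 call was lost with DESeq2 (0.18, adjusted p = 0.0817), by edgeR with no filter on low counts (0.19), and by edgeR without TAC replicate 2, 3 or 4 or sham replicate 2, 3, 4 or 5 (0.15 to 0.20 in the 7 fits with a library left out). Cardiomyocyte markers summed to 60146 to 86269 CPM in TAC and 91880 to 108270.0 CPM in sham libraries. Pln, Tnnt2 and Tnni3 had log2FC values of -0.59 ± 0.07 (adjusted p = 5.65e-05 by edgeR), -0.47 ± 0.06 (adjusted p = 0.000145 by edgeR) and -0.59 ± 0.09 (adjusted p = 0.000252 by edgeR). The part of these cardiomyocyte falls in the rises of endothelial members was not tested.

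**Figure D5:**
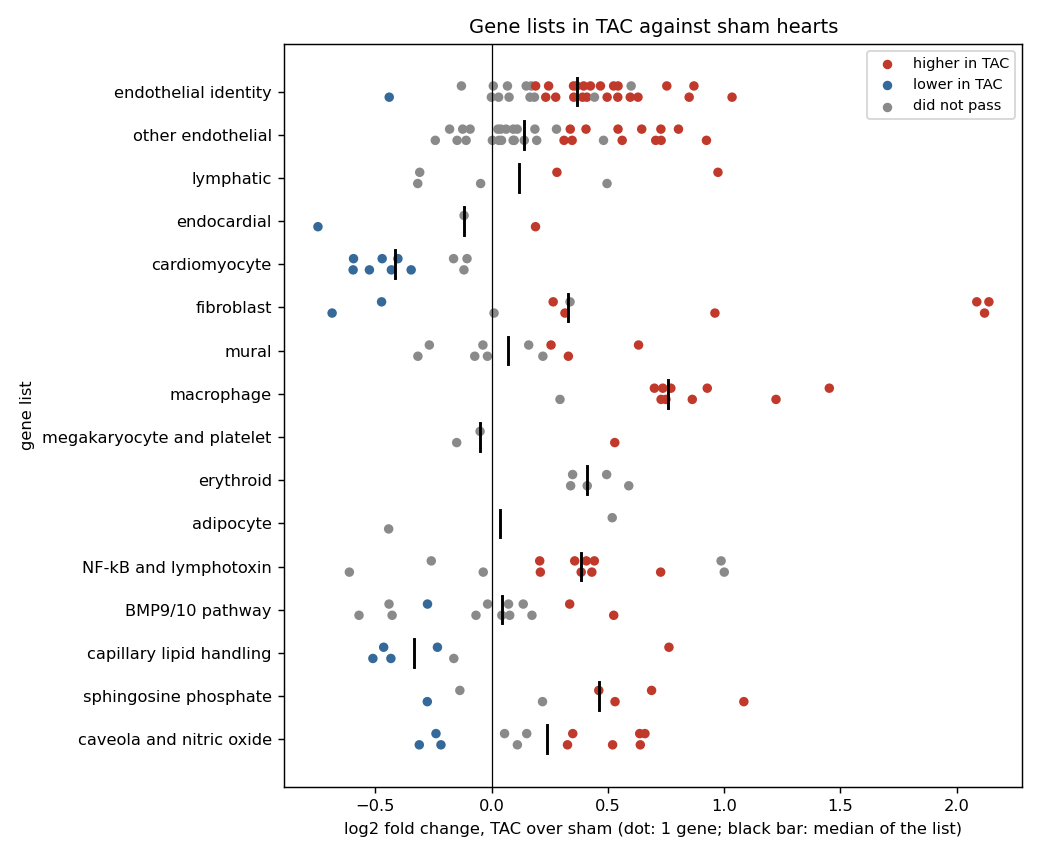
Each dot is a tested gene at its log2FC of TAC over sham, in rows by gene list, and black bars are list medians. Colours show whether a gene rose, fell or did not pass. The median was 0.37 for the endothelial identity genes, 0.14 for other endothelial genes, 0.76 for macrophage genes and -0.42 for cardiomyocyte genes.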

How the data were processed

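The deposited table, made by the authors, holds raw read counts per Ensembl gene for 10 polyA RNA-seq libraries of the ventricular apex, without strand. Per the submitters' processing notes, the TAC libraries list TopHat 1.3.0 with Bowtie and builds mm9 and mm10, and the sham libraries list TopHat2 2.0.10 with Bowtie2 and build mm10. Both list HTSeq. The file header names GRCm37, and the sources used here give no counting settings. The 1 row of totals was left out.

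The test was the quasi-likelihood F test of edgeR 4.0.16 (R 4.3.3): TMM, filterByExpr (minimum count 10, total 15), group as the term, Benjamini-Hochberg at 0.05 over 12001 genes. The SE is the log2 fold change divided by the root of F. DESeq2 1.42.0, limma-voom (limma 3.58.1), other scalings and filters, the replicate block and leaving out each library were alternatives. Ratios of 8 pairs of related members, chosen after their values were seen, were tested by exact permutation. The log2 ratios use CPM with a prior count of 2. The method was checked on simulated data.

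Lengths (longest APPRIS principal transcript) and exon overlaps come from GENCODE M21 (GRCm38), matched by Ensembl ID, and promoters from RefSeq GRCm38.p6. Of the endothelial members, all 36 matched. Library pairs within a group differed by a chi-square of 2.67 to 24.9 per gene over 20 pairs, so none was taken as a repeat. Members and the other 16 lists were chosen with earlier results of these data known. Named genes are the members, up to 3 genes per other list with the smallest adjusted p, and partners of members. Genes named to make up a count or to mark a limit, among them those too low to test, were added after their values were seen.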

Additional observations from a re-analysis of the deposited data

Results flagged for a closer look

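In 72 groups of 5 values (36 members in TAC and in sham), 9 had a highest or lowest library that stood apart from the other 4 by Dixon's criterion, which chance meets in about 1 of 20 groups. In the library labelled TAC replicate 1 these were Sele at 5.66 CPM, Selp at 3.58 CPM and Icam1 at 33.98 CPM, each the highest of the TAC hearts. The next highest TAC values were 2.77, 1.36 and 27.2 CPM. The summed CPM of macrophage and of fibroblast markers was also highest in that library. Several of these genes were highest in other libraries, among them Cd14, Cd163, Gsn and Pdgfra. The part of these cells was not tested.

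Eng in TAC replicate 2, at 471 CPM, and Tal1 in TAC replicate 5, at 12.95 CPM, were the highest of their TAC hearts. Among sham hearts, replicate 2 was highest in Sox7 (40.97 CPM) and Tal1 (9.63 CPM). Sham replicate 1 was highest in Fabp4 (515 CPM) and lowest in Erg (27.7 CPM).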

How the results depend on the processing

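The count of 22 members that rose lay between 17 and 25 over the 18 alternatives: 25 with library totals, 20 with DESeq2, 21 with limma-voom, 21 with no filter on low counts, and 17 to 22 when a library was left out. Prox1 was the member called lower in each. With library totals the median over all genes moved to a log2 fold change of 0.11 and that of the members to 0.47, and the calls over all genes were 3257 higher and 1159 lower, against 2251 and 2040 with TMM. Same-numbered TAC and sham libraries correlated at -0.0916 to 0.222 in their deviations from the group means. Of the 5 numbers, 2 matched best with their own. Correlations of 5 numbers cannot decide whether equal numbers share a day or batch, so a fit with that block follows. With replicate number as a block 21 members rose (Cldn5 and Tal1 lost, Sox18 gained) and 1 fell. Among other named genes the block ended the call of Nfatc1 (0.189) and gave one to Pdpn (0.481). Of other endothelial genes 12 rose, 11 to 13 when a library was left out, and the count that fell was then 0 to 1. Members Eng, Ltbr, Cldn5, Cav2, Sele and Tal1 each lost their call in at least 4 alternatives, and no called member changed sign.

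Genes that changed sign were uncalled, and their log2 fold changes lay near 0 except for Cfd (0.52) and Ppbp (-0.15). With library totals the log2 fold change was 0.101 for Vwf, 0.0591 for Itga2b and 0.0896 for Id1, with upper quartile factors 0.0022 for Vwf, with limma-voom -0.0605 for S1pr1 and 0.0017 for Ppbp, and with the replicate block -0.0523 for S1pr1. When a library was left out, values ran -0.0203 to 0.174 for Plvap, -0.0051 to 0.17 for Emcn, -0.0503 to 0.109 for Sox17, -0.153 to 0.144 for S1pr1, -0.095 to 0.0539 for Vwf, -0.3825 to 0.1451 for Ppbp, -0.1473 to 0.0316 for Itga2b, -0.0277 to 0.768 for Cfd and -0.0791 to 0.0632 for Id1. The cause was not tested. Depth limits Sele and Selp, the members with the fewest reads.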
